A study of Mus musculus with 6 samples.

Results

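The 9 genes described here act at the entry into S phase and in DNA replication: the cyclin genes Ccne2 and Ccna2, the transcription factor gene E2f1, the cyclin-dependent kinase inhibitor gene Cdkn2c, the helicase genes Mcm3, Mcm6 and Mcm8, the helicase cofactor gene Gins1 and the sliding clamp gene Pcna. They were chosen by name, as rows of the deposited table whose platform annotation gave exactly 1 symbol, out of 7486 genes with such a row, and each of the 9 had a single row. All 9 had mean signals above 4.22 log2 units, the 95th percentile of 426 olfactory and vomeronasal receptor probe sets, which served as a gauge of background. The siDicer group held Melan-a cells, an immortal line of pigmented C57BL/6 mouse melanocytes, lysed 24 hours after transfection with an siRNA against Dicer, the enzyme that cuts microRNA precursors. The siScr group held the same cells transfected alike with a control siRNA. Both groups grew with 200 nM of the phorbol ester TPA, and each had 3 arrays, from cells at passages 47, 54 and 56, so that each siDicer array had an siScr array of its own passage. All values come from a single cell line, and the result at each passage rests on 1 array per group.

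In background, cells commit to S phase when cyclin-dependent kinases phosphorylate the retinoblastoma proteins and free E2F factors, which switch on genes of cyclins and of the replication machinery. The Mcm proteins of the replicative helicase, among them Mcm3 and Mcm6, are loaded at origins of replication. The GINS complex joins them to form the active helicase. Cyclin E with Cdk2 acts at the start of S phase and cyclin A with Cdk2 during it, so transcripts of these genes are known to be more abundant in cycling than in resting cells.

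Upstream sequence shows what some of these genes carry at their start. RefSeq windows of 300 bases on GRCm38.p6, with 250 bases before the start site and 50 from it on, were at hand for 6 of the 9 genes (E2f1, Mcm3, Mcm6, Mcm8, Pcna and Cdkn2c), with an additional window for Cdkn2c. The start site lay inside the outermost start of the gene by 466 bases for E2f1, by 4 bases for Mcm8 and by 1384 bases for the additional window of Cdkn2c, and it was the outermost start for the others. They were searched on both strands for the E2F words TTTGGCGC, TTTCCCGC, TTTCGCGC and TTTGCCGC, which can overlap each other, and for CCAAT. Those of Mcm3, Mcm6 and Mcm8 are shown because all 3 hold TTTGGCGC, and that of Pcna because this clamp gene followed Mcm3 and Mcm6 closely across the arrays and its window holds none of the 4 words; capitals mark the E2F words.
Mcm3, chr1:20820263-20820562, minus strand: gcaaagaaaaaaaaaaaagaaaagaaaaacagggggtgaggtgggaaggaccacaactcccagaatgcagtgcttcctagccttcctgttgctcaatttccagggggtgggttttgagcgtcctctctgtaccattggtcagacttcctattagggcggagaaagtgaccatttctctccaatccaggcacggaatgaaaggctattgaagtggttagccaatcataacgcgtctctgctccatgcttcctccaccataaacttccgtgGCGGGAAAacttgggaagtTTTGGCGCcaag
Mcm6, chr1:128359656-128359955, minus strand: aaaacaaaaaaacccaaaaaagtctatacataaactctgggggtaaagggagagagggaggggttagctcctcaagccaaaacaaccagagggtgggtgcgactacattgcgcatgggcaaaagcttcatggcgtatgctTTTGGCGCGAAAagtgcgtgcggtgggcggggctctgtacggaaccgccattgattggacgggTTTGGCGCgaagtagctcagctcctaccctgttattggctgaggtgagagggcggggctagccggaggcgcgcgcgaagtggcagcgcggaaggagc
Mcm8, chr2:132815891-132816190, plus strand: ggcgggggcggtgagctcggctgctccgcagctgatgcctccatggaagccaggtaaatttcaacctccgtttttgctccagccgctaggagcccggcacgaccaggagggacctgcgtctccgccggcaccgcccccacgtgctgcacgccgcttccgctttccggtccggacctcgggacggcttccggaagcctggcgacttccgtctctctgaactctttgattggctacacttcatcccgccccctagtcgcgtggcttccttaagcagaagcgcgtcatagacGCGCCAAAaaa
Pcna, chr2:132253131-132253430, minus strand: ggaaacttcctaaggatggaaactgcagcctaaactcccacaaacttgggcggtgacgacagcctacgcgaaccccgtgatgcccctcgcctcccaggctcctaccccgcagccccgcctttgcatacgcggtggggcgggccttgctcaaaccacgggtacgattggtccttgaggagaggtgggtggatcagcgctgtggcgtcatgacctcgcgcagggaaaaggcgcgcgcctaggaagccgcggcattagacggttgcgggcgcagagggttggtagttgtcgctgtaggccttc

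The Mcm3 window held TTTGGCGC from base 39 after the start site and TTTCCCGC, on the other strand, from base 20. The Mcm6 window held TTTGGCGC from bases -110 and -47, the first of them overlapped by TTTCGCGC on the other strand, and the Mcm8 window held TTTGGCGC on the other strand from base 40. Among all 32851 windows of that length, 0.514% held TTTGGCGC and 2.26% held at least 1 of the 4 words. CCAAT stood in all 4 windows shown and in 37.4% of all windows. None of the 4 E2F words was found in the windows of E2f1 and Cdkn2c. The E2f1 window lay wholly inside the gene, at a start site 466 bases from the outermost one. Sequence before the outermost start of E2f1 was thus not searched. These are matches of letters, and binding at them was not analysed here.

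Cyclin E2 was lower in siDicer than in siScr cells at every passage. Ccne2 read 6.52, 6.85 and 6.96 log2 units in siDicer cells of passages 47, 54 and 56, against 7.05, 7.26 and 7.31 in siScr cells. Every siDicer array lay below every siScr array. Its transcript fell by 0.43 ± 0.06 (SE) on the log2 scale, which left it 25.9% lower, with a 95% interval of -0.58 to -0.29 and an adjusted p of 0.0433 in limma with the passage pairs as a block. Without the block the adjusted p was 0.272 and the interval ran from -0.70 to -0.16. The call was also lost with the passage pairs as a random effect, at an estimated correlation (adjusted p = 0.073), after quantile normalization (0.0542), after cyclic loess (0.053) and with any pair left out (0.0783 to 0.199).

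Ccne2 was the only gene of the 9 to pass the threshold with the block, an adjusted p under 0.05 over all 16383 probe sets, and 0 of the 9 passed without it. Across all probe sets 0.995% passed with the block, 0.238% passed as lower in siDicer, and 0.214% passed without the block. At an unadjusted p under 0.05 in limma with the block 4 of the 9 were lower (Ccne2, Ccna2, Cdkn2c and Mcm8) and none higher, against 6.85% of all probe sets lower. All 9 changes were below 0, against 55.6% of probe sets, and their median was -0.14 where that of all probe sets was -0.014. Those of E2f1 (-0.01) and Gins1 (0.00 to 2 decimals) were barely so, and Gins1 kept this sign in 7 of 19 alternative settings. The genes were named with earlier results of these arrays known, and these shares carry no test.

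**Figure D1:**
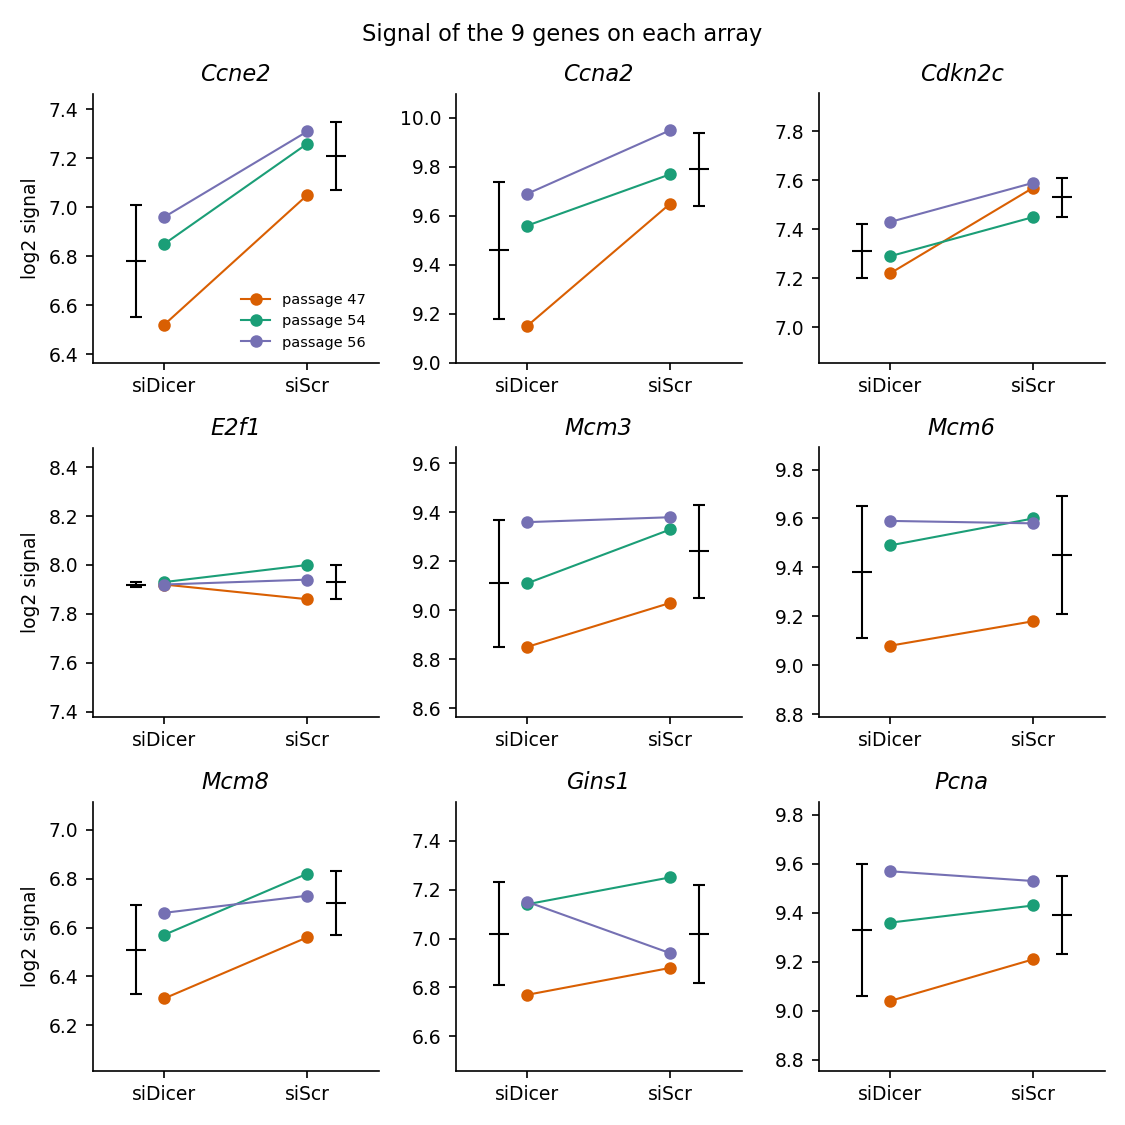
Log2 signal (y axis, the same span of 1.1 units in each panel) of the 9 genes on each array, with siDicer on the left and siScr on the right; lines join arrays of the same passage, and black bars give the mean ± SD of 3 arrays. Ccne2 and Cdkn2c show no overlap between groups, E2f1 stays near 7.9 throughout, and the orange points of passage 47 are the lowest of their group for most genes.

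Cyclin A2, which pairs with Cdk2 in S phase and with Cdk1 towards mitosis, had the next largest difference. Ccna2 read 9.15, 9.56 and 9.69 in siDicer cells of passages 47, 54 and 56, against 9.65, 9.77 and 9.95 in siScr cells. The siDicer value was lower at every passage, but the groups overlapped, since siScr cells of passage 47 lay below siDicer cells of passage 56. Its change was -0.33 with an interval of -0.50 to -0.15, and it did not pass (adjusted p = 0.117 with the block, 0.483 without). The difference was -0.50 at passage 47, -0.21 at passage 54 and -0.26 at passage 56.

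Cdkn2c encodes p18-INK4c, an inhibitor of Cdk4 and Cdk6 that holds cells before S phase. It read 7.22, 7.29 and 7.43 in siDicer cells, against 7.57, 7.45 and 7.59 in siScr cells, in the same order of passages. All siDicer values lay below all siScr values, by a margin of 0.02 between 7.43 and 7.45. Its change of -0.22 had an interval of -0.38 to -0.07 and did not pass (adjusted p = 0.179 with the block, 0.393 without). Groups that did not overlap, with siDicer lower, were thus seen for 2 of the 9 genes, and for 8.29% of all probe sets. The difference of this inhibitor had the same sign as those of the cyclins.

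E2f1, the activator of the replication genes whose human counterpart is a reported microRNA target, showed almost no difference. It read 7.92, 7.93 and 7.92 in siDicer cells of passages 47, 54 and 56, against 7.86, 8.0 and 7.94 in siScr cells. The groups overlapped, and the siDicer value was higher at passage 47 and lower at the other passages. Its change was -0.01 with an interval of -0.15 to 0.13 (adjusted p = 0.958 in limma), so a shift of Ccne2's size lies outside that interval. Without the block the interval was the same to 2 decimals.

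**Figure D2:**
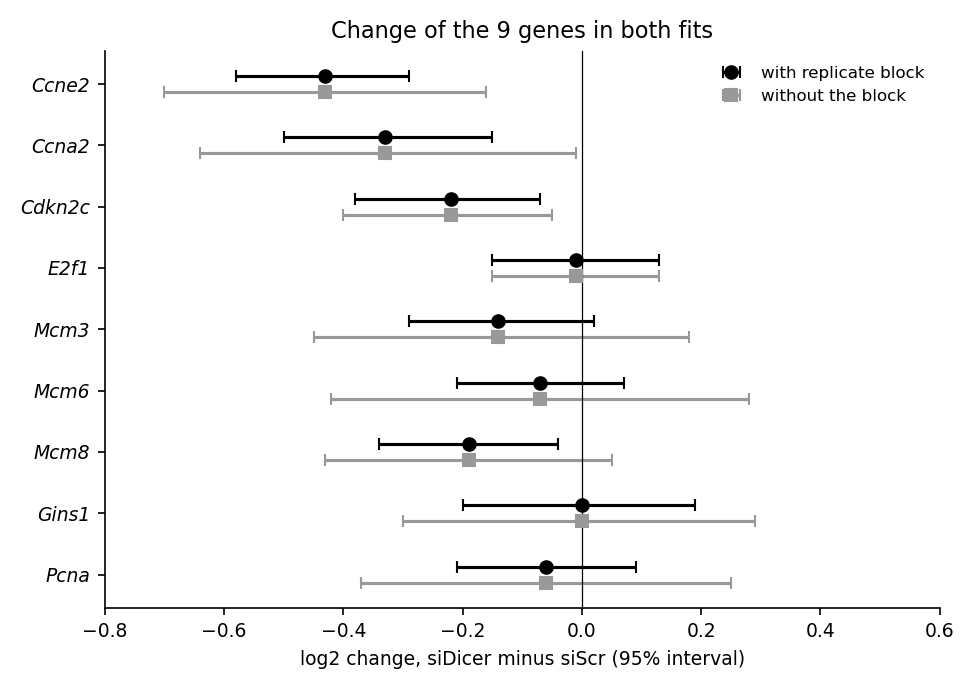
Log2 change of each gene, siDicer minus siScr (x axis), with 95% intervals from limma with the replicate block (black circles) and without it (grey squares). Intervals of Ccne2, Ccna2 and Cdkn2c lie below 0 in both fits, that of Mcm8 with the block alone, and those of E2f1 and Gins1 are centred near 0.

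The helicase genes differed among themselves. Mcm8, which acts with Mcm9 in repair by homologous recombination rather than in the main replicative helicase, read 6.31, 6.57 and 6.66 in siDicer cells, against 6.56, 6.82 and 6.73 in siScr cells. It was lower at every passage with overlapping groups, and its change of -0.19 (interval -0.34 to -0.04) did not pass (adjusted p = 0.231 with the block, 0.593 without). Mcm3, a subunit of the replicative helicase, read 8.85, 9.11 and 9.36 in siDicer cells, against 9.03, 9.33 and 9.38 in siScr cells. Its differences at passages 47 and 54 were -0.18 and -0.22, that at passage 56 was -0.01, and the change of -0.14 (interval -0.29 to 0.02) did not pass (adjusted p = 0.36).

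Mcm6, another subunit of that helicase, read 9.08, 9.49 and 9.59 in siDicer cells, against 9.18, 9.60 and 9.58 in siScr cells. The values of both groups were nearly level at passage 56, and the change was -0.07 (interval -0.21 to 0.07, adjusted p = 0.58 in limma). Pcna, the clamp that holds DNA polymerase on the template, read 9.04, 9.36 and 9.57 in siDicer cells, against 9.21, 9.43 and 9.53 in siScr cells. It was lower in siDicer cells at passages 47 and 54 and higher at passage 56, with a change of -0.06 (interval -0.21 to 0.09, adjusted p = 0.675).

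Gins1, a subunit of GINS, read 6.77, 7.14 and 7.15 in siDicer cells, against 6.88, 7.25 and 6.94 in siScr cells. The difference was -0.11 at passages 47 and 54 and 0.21 at passage 56, and the fitted change of 0.00 had an interval of -0.20 to 0.19 (adjusted p = 0.99 in limma). Counted together, 5 of the 9 genes (Ccne2, Ccna2, Cdkn2c, Mcm8 and Mcm3) were lower in siDicer cells at all 3 passages, as were 22.6% of all probe sets. In RNA from whole cultures, fewer cells in S phase and less of a transcript per cell cannot be told apart.

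For 7 of the 9 genes the difference between passages was larger than that between siRNAs, Ccne2 and Cdkn2c being the others. Among the 7, E2f1 had 0.05 against -0.01, both near 0, and Ccna2 0.35 against -0.33. The share of all probe sets with a larger passage difference was not computed. The mean of passages 54 and 56 was above that of passage 47 for all 9 genes, with the siRNA kept in the model, while 45.2% of all probe sets had a difference above 0. Passage, replicate number and the day of culture cannot be told apart, since each passage has 1 number. In limma 0 of the 9 passed for passage (0.287% of probe sets passed as higher later), although 7 of 9 were higher later at an unadjusted p under 0.05, against 8.45% of all probe sets. The exceptions were E2f1 and Cdkn2c, with differences of 0.05 each. This contrast was added after the values were seen.

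Mcm6 had the largest difference between passages of the 9, 0.44 ± 0.06 (SE), or 1.35-fold higher at the later passages (adjusted p = 0.0643 in limma). It was 0.46 in siDicer cells and 0.42 in siScr cells, so it was present in both groups. For Mcm3 and Pcna the later passages were higher by 0.36 and 0.35, beside siRNA changes of -0.14 and -0.06. For Ccna2 the passage difference of 0.35 and the siRNA change of -0.33 were of like size. Ccne2 had 0.31 for passage, below the size of its siRNA change. The array of siDicer cells at passage 47 gave the lowest of the 6 values for 8 of the 9 genes, E2f1 being the exception. Without that passage, in the fit with the block, the change of Ccne2 was -0.38, that of Ccna2 -0.24 and those of Cdkn2c and Mcm8 -0.16 each. Those of Mcm3, Mcm6, E2f1 and Pcna were -0.12, -0.06, -0.04 and -0.01, and that of Gins1 was 0.05. With that array alone left out, its siScr partner kept and no block, the change of Ccne2 was -0.30, that of Ccna2 -0.17, that of Cdkn2c -0.18, that of Mcm8 -0.09 and that of Mcm3 -0.01. In the same fit those of Mcm6 and Pcna were 0.08 each and that of Gins1 0.12, and none of the 9 passed. That fit has passage 47 in siScr alone, so its changes mix the siRNA and passage differences.

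**Figure D3:**
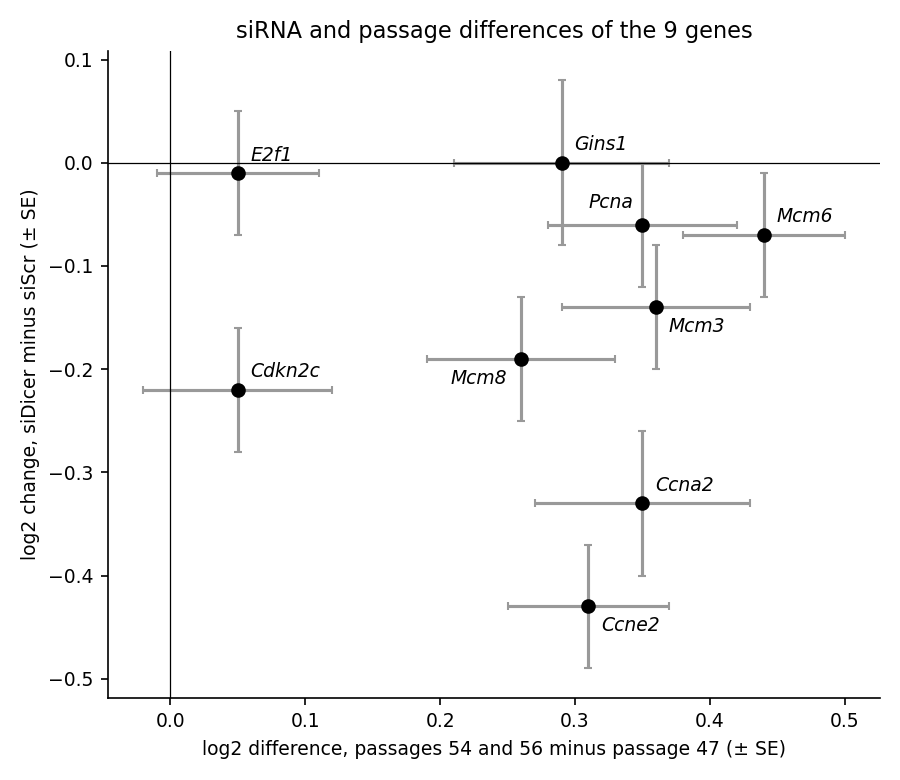
Each of the 9 genes by its log2 difference between the later passages and passage 47 (x axis) and its log2 change, siDicer minus siScr (y axis), both from the same limma fit with bars of ± SE. Mcm6, Mcm3, Pcna and Gins1 lie to the right with small siRNA changes, Ccne2 and Ccna2 are low and to the right, Cdkn2c is low near 0 for passage, and E2f1 lies near 0 on both axes.

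Across the 6 arrays the 36 pairs among the 9 genes had Pearson r from -0.17 to 0.97, with a median of 0.70. The highest was between Mcm3 and Pcna (0.97), followed by Ccne2 with Ccna2 (0.96). E2f1 and Cdkn2c made the lowest, and Gins1 with Cdkn2c gave 0.05. These correlations describe 6 arrays that share the siRNA groups and passages. Of 5109 other named genes above the background gauge, those most like the mean profile of the 9 were Terf1 (r = 0.991), a telomere-binding protein, Hat1 (0.99), a histone acetyltransferase that acts on newly made histones, Gm12666 (0.99), Cdc20 (0.989), the activator of the anaphase-promoting complex, and Kif18a (0.989), a kinesin of the mitotic spindle. In all 145 of the 5109 had r above 0.9, so a high r was not particular to these 5. Their changes ran from -0.09 for Gm12666 to -0.32 for Cdc20, and none of the 5 passed (adjusted p from 0.0874 to 0.501 in limma). The 5 were picked for following the mean profile on the same arrays, so their changes are not separate evidence.

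The genes most like Ccne2 alone were H2az1, a histone variant (r = 0.995), Hp1bp3, a chromatin protein (0.993), and Usp1, the deubiquitinase that acts on PCNA (0.993). H2az1 read 9.77, 10.09 and 10.17 in siDicer cells of passages 47, 54 and 56, against 10.23, 10.37 and 10.46 in siScr cells. Its change was -0.34, that of Hp1bp3 -0.13 and that of Usp1 -0.27, without passing (adjusted p = 0.0751, 0.302 and 0.112 in limma). These 3 were picked for following Ccne2 on the same arrays, so their changes are not separate evidence. In all 148 of the 5109 genes had r above 0.9 with Ccne2. The genes most like E2f1 were Ndufs5, a subunit of mitochondrial complex I (r = 0.992), Spata5l1 (0.99) and Cstf1, a subunit of a factor in messenger RNA cleavage (0.989). E2f1 itself spanned only 0.14 log2 units over the 6 arrays, and 103 of the 5109 genes had r above 0.9 with it.

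The wider machinery was followed in 4 lists, of which 42 genes were measured, since the table held almost only genes of chromosomes 1 to 4. In limma 0 of the 42 passed with the block, against 0.995% of all probe sets, and 0 without it, against 0.214%. At an unadjusted p under 0.05 with the block 7 were lower and 0 higher, against 6.85% of all probe sets lower. The median change of the 42 was -0.07, and 32 were below 0, against 55.6% of all probe sets. Of the G1/S control list 12 of 46 genes were measured. Rbl1, the p107 pocket protein that binds E2F factors, read 7.78, 8.08 and 8.34 in siDicer cells, against 8.27, 8.32 and 8.56 in siScr cells. Its differences at the 3 passages ran from -0.48 to -0.23, with a change of -0.32 that did not pass (adjusted p = 0.118). Mybl1 and Mybl2, of the Myb family, had changes of -0.20 and -0.15, and the other E2F genes measured, E2f2 and E2f5, of -0.10 each.

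Among 12 measured genes of origin licensing and the replication fork, the median change was -0.05. Orc2, a subunit of the origin recognition complex, read 7.27, 7.59 and 7.53 in siDicer cells of passages 47, 54 and 56, against 7.55, 7.98 and 7.82 in siScr cells. Its differences at the 3 passages ran from -0.39 to -0.27, and its change of -0.32 (interval -0.45 to -0.18) did not pass (adjusted p = 0.0716 with the block, 0.445 without). Prim2, the large primase subunit, had a change of -0.11, and Clspn, the checkpoint mediator claspin, one of -0.08. Mcm10, which helps to activate the helicase, had 0.01, and Orc1, Orc3 and Orc4 lay between -0.07 and -0.04.

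The 8 measured genes of nucleotide supply had a median of -0.09. Samhd1, which breaks down deoxynucleoside triphosphates, read 8.24, 8.72 and 8.40 in siDicer cells, against 8.55, 9.0 and 8.74 in siScr cells. The difference was -0.31, -0.28 and -0.34 at the 3 passages, and the change of -0.31 did not pass (adjusted p = 0.0671 with the block, 0.515 without). Dut, which removes deoxyuridine triphosphate, and Cmpk1, a pyrimidine kinase, had -0.14 each. The 10 measured genes of S-phase repair and checkpoint had a median of -0.05, with Bard1, the partner of Brca1, at -0.18, the exonuclease Exo1 at -0.12 and the recombination helicase Rad54l at -0.10, none of which passed (adjusted p from 0.227 to 0.485).

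Of 25 measured genes of mitosis, 5 fell with the block (Aurka, Fam83d, Tpx2, Bub1 and Cenpe) and 0 did without it. An unadjusted p under 0.05 in limma was seen for 23 with the block. It was seen for 11 without the block, where the share of all probe sets was not computed. Those 23 were all lower, against 6.85% of all probe sets lower with the block. With the pairs as a random effect 2 of the 25 passed, and over all probe sets 0.238% passed as lower with the block. Their median change was -0.32, against -0.14 for the 9 genes and -0.07 for the 42 others, and the difference between lists was not tested. The lists share the arrays, so they are not separate evidence. Fam83d, a spindle protein, read 6.99, 7.20 and 7.33 in siDicer cells, against 7.53, 7.73 and 7.84 in siScr cells. It fell by 0.53, with differences of -0.54, -0.53 and -0.52 at the 3 passages (adjusted p = 0.0238 with the block, 0.127 without).

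**Figure D4:**
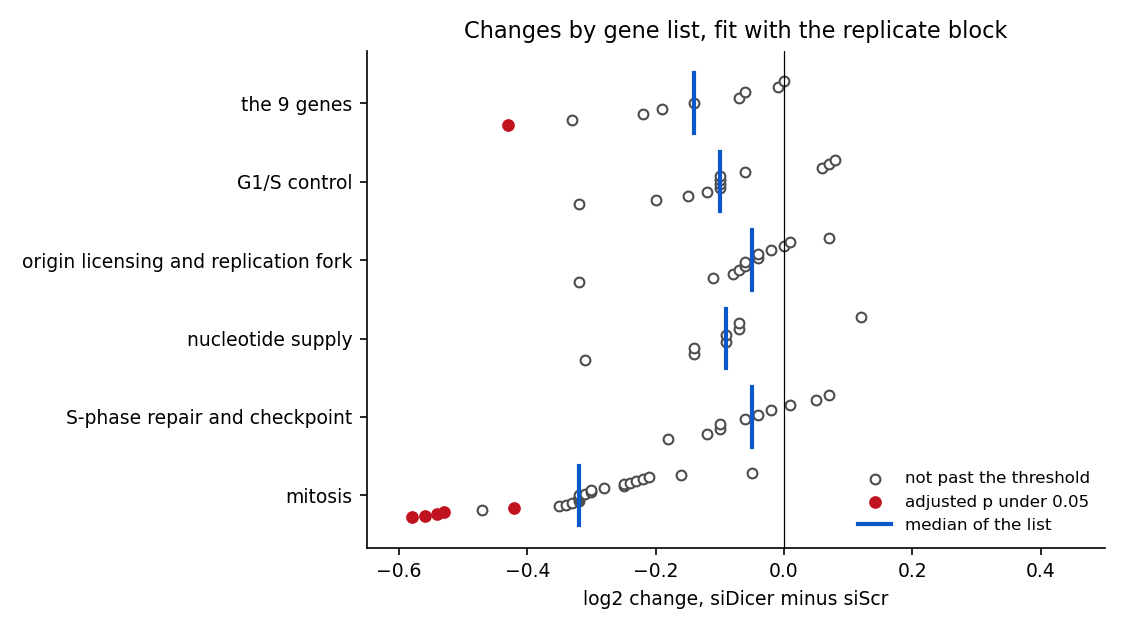
Log2 change, siDicer minus siScr (x axis), of each measured gene in 6 lists, where red points passed an adjusted p under 0.05 with the replicate block, open points did not, and blue lines give list medians. Ccne2 and 5 genes of mitosis passed, and the medians of the replication lists lie between -0.10 and -0.05.

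The cells carried melanocyte markers, with Tyrp1 and Pax3 averaging 12.85 and 10.57 log2 units over the 6 arrays, and 0 of the 4 measured melanocyte markers passed. Of markers of other cells, 0 of 8 for fibroblasts, 0 of 5 for keratinocytes and 0 of 8 for immune cells passed in limma with the block, and 2, 0 and 3 of them had an unadjusted p under 0.05. The 2 fibroblast genes were higher in siDicer, Postn by 0.25 and Col5a1 by 0.19. The other 6 of the 8 had changes below 0, and the median of the 8 was -0.05. The 3 immune genes were lower, as were 6.85% of all probe sets at that p. Of the immune genes 4 of 8 had mean signals above the gauge of 4.22, among them C1qa at 5.38, Fcer1g at 5.09 and C1qb at 4.98. These 3 were lower in siDicer without overlap, as were 8.29% of all probe sets. Their changes of -0.29, -0.25 and -0.20 did not pass (adjusted p = 0.19, 0.176 and 0.283 in limma). The other immune gene above the gauge, C1qc at 4.74, had a change of -0.03 with overlapping groups. The pan-leukocyte gene Ptprc, at 2.84, lay near the receptor median of 2.78. The summed linear signal of the 8 immune genes ran from 164 to 183 in siDicer and from 194 to 196 in siScr, without overlap, and its part in the results was not tested. The array medians were between 4.58 and 4.64 and arrays of different groups correlated with r from 0.994 to 0.997. RNA integrity numbers were 9.7 to 10, per the labels. Dicer1 was not analysed here, so the groups rest on the labels.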

How the data were processed

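Total RNA was hybridised to mouse Clariom D arrays, per the labels' protocols. Each deposited value is the log2 signal of a probe set. Per the submitters' processing notes the authors used Affymetrix Expression Console; the normalization method is not given in these sources. Probe sets were named from the platform annotation, with symbols updated through Entrez numbers; chromosomes come from the RefSeq table.

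All 16383 probe sets were fitted with limma 3.58.1 in R 4.3.3 (siDicer minus siScr, replicate number as a block, eBayes, Benjamini-Hochberg adjustment over all). The block was used because same-numbered arrays share a passage. Their deviations from group means correlated with r of 0.44, 0.41 and 0.24. With the block the p-values measure the spread of the siDicer minus siScr differences across passages, moderated over all probe sets by eBayes. Without the block they measure the spread between cultures within a group. All cultures were of a single line. The members, lists and block were chosen with earlier results of these data known. All 9 genes are named, with the 3 smallest p-values of each further list, up to 5 mitosis genes that passed, and the genes most like the 9; other list genes were named after their values were seen. On simulated data, with changes placed on probe sets drawn at random from the 16383, this fit recovered 71.2% of changes of 1 log2 unit, 28.4% of 0.5 and 0% of 0.25. In that simulation, changes as small as most reported here could rarely pass. Its noise took the residual SD of each probe set, estimated from these few arrays, as the true one. Its rates may thus differ from those of the real fit. Rates for the genes reported here were not simulated. The number of arrays limits the precision, and signal differences of dim probe sets are compressed by background.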

Additional observations from a re-analysis of the deposited data

How the results depend on the processing

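Probe sets passing numbered 163 with the replicate block and 35 without it, and genes of the 9 numbered 1 and 0. With replicate number as a random effect 209 probe sets and 0 of the 9 passed. Quantile normalization gave 84 and 0, and cyclic loess 93 and 0. Filters on dim probe sets gave 388 (above the median level) and 291 (above the receptor level), and a variance trend 302, with Ccne2 passing in each. Leaving out a pair gave 0 to 157 probe sets, and leaving out an array without the block 0, 4, 7 or 20, with 0 of the 9 in either case. The mitosis count of 5 became 0 without the block, 2 with the random effect, 3 after either normalization, 13, 10 and 13 with the filters and the trend, 0 without replicate 2 or 3, and 12 at a threshold of 0.1. The 42 further genes gave 2 with the filters, the trend and that threshold, and the 9 genes gave 1 for passage with the filters and the trend. The split of calls was 124 higher and 39 lower in siDicer, against 54 and 30 after quantile normalization and 62 and 31 after cyclic loess.

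Ccne2 kept its direction in all 19 alternatives, with changes from -0.52 to -0.30, and passed in 6. Ccna2, Mcm3, Mcm8 and Cdkn2c also kept theirs, while E2f1, Mcm6, Pcna and Gins1 changed sign in some, never past the threshold. Mcm6 and Pcna did so only without the block and with a single array left out, where passages were unbalanced between groups. No gene of the 9 had several rows, so averaging rows gave no value. Causes of these differences were not tested, beyond fewer arrays or probe sets in those fits.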
